A study of Mus musculus with 3 samples.

Results

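The promoters of 47 DNA replication genes were examined for binding of NR2F2 (also called COUP-TFII), an orphan nuclear receptor that binds DNA, in the embryonic mouse testis. The 47 genes encode the proteins that recognise, license and open replication origins and that copy the DNA. A gene was counted as having a peak when an NR2F2 peak lay within 1 kb of any of its transcription start sites (TSSs) in the curated RefSeq annotation of GRCm38 (mm10). By this rule 22 of the 47 genes had a peak, against 5894 of all 21000 protein-coding genes, which is 28.1%.

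NR2F2 was immunoprecipitated from chromatin of whole CD-1 testes at E14.5, from which the mesonephros had been removed. There were 2 independent ChIP-seq libraries, each from a pool of 30 embryonic testes, and 1 input library of chromatin sequenced without immunoprecipitation. No library came from embryos with altered NR2F2, and no genotype or treatment distinguished the libraries. Whole testes hold several cell types together, so a peak or its absence could not be assigned to a cell type, and counts at peaks hold no measure by which the labelled tissue could be checked. The authors called 10069 peaks of 300 bp on the merged ChIP reads and counted reads of each library in them. The counts at peaks summed to 426784 in ChIP replicate 1, 364261 in ChIP replicate 2 and 73251 in the input, with medians of 37, 31 and 7 per peak.

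DNA replication begins when the origin recognition complex (ORC), Cdc6 and Cdt1 load the MCM helicase onto DNA in the G1 phase, with geminin holding Cdt1 back later in the cycle. Cdc45 and the GINS complex then turn the loaded MCM ring into the active helicase, polymerase alpha with primase lays down primers, and polymerases epsilon and delta extend them with the sliding clamp PCNA, its loader replication factor C (RFC) and the single-strand binding protein RPA. Fen1 and Lig1 mature and seal the Okazaki fragments. Many of these genes are classical targets of E2F factors, which raise their transcription before S phase, and the fetal testis at this stage holds dividing somatic cells.

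The share of replication genes with a peak was 46.8% (22 of 47), and by complex it ranged from 1 of 6 genes to 4 of 4. All 4 genes of polymerase epsilon had a peak, as did 3 of 4 of polymerase delta, 3 of 4 of GINS, 3 of 5 of RFC and 2 of 3 of RPA. The MCM family had a peak at 3 of 8 genes. Of the 6 ORC genes and of the 6 licensing and activation factors, 1 each had a peak, and of the 4 genes of polymerase alpha and primase, as of the 3 genes of clamp, flap endonuclease and ligase, 1 had a peak. These groups hold between 3 and 8 genes each, and no difference between them was tested.

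**Figure D1:**
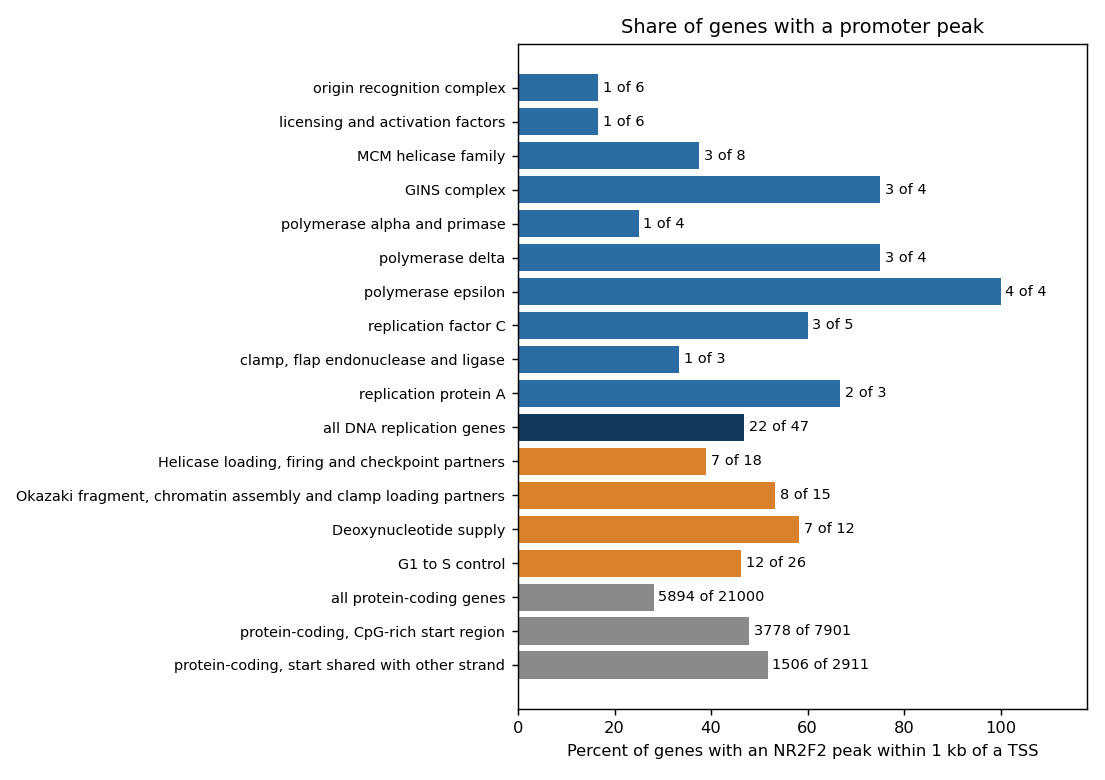
Percentage of genes with an NR2F2 peak within 1 kb of a TSS, for each replication complex and for all 47 replication genes, beside the protein-coding backgrounds. Polymerase epsilon stood at 4 of 4 genes and ORC at 1 of 6, and the 47 genes together, at 46.8%, lay above all protein-coding genes (28.1%) and near those with a CpG-rich start region (47.8%). The 47 include genes that were not CpG-rich or had no matched start region. Among the 30 known to be CpG-rich the share was 46.7%.

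Sequence is shown for the 4 member peaks with the highest summed ChIP count, at Pold3, Pold1, Rfc4 and Gmnn, since these carry the strongest signal, and for Gins3, Pola1 and Mcm6, whose peaks hold matches to the nuclear receptor or E2F words described further on. The last of these was chosen after its matches were seen. Only the bases of each peak that lie outside curated transcripts are given, 5′ to 3′ on the strand of the gene, from the mm10 genome (RefSeq GRCm38). Capitals mark matches, on either strand, to AGGTCA, the core word bound by many nuclear receptors, to its extended forms AGAGGTCA and AGGGGTCA, to the E2F words TTTCCCGC, TTTCGCGC, TTTGCCGC and TTTGGCGC, to CCAAT (NF-Y), to GGGCGG (Sp factors) and to CCGGAAG (ETS factors).
Pold3: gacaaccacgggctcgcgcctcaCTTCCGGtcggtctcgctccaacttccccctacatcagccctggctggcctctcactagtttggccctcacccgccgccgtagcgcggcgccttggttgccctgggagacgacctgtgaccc
Pold1: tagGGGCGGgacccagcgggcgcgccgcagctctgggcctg
Rfc4: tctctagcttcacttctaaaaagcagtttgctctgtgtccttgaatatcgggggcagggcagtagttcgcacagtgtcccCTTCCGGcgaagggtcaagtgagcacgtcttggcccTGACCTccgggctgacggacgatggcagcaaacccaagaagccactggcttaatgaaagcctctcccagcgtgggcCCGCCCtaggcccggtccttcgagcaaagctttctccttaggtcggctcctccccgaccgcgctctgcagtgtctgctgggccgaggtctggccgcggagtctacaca
Gmnn: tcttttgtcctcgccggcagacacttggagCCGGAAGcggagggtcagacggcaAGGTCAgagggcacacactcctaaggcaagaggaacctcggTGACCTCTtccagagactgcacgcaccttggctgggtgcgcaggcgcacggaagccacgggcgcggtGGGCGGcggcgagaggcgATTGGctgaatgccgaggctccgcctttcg
Gins3: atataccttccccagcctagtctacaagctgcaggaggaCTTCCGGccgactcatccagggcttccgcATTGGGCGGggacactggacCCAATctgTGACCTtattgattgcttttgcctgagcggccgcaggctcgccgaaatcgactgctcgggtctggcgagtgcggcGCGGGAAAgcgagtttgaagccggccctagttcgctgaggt
Pola1: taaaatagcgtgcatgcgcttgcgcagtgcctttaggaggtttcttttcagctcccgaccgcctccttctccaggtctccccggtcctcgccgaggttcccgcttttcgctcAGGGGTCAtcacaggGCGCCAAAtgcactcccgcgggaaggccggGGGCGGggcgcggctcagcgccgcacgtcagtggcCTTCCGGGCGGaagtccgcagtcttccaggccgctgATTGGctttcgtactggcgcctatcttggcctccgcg
Mcm6: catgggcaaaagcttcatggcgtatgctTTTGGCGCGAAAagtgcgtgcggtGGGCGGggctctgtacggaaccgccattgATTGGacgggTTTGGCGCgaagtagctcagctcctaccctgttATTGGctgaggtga
These stretches lay at chr7:100121503-100121647 for Pold3, chr7:44548816-44548856 for Pold1, chr16:23127869-23128168 for Rfc4, chr13:24761938-24762147 for Gmnn, chr8:95633347-95633558 for Gins3, chrX:93632156-93632420 for Pola1 and chr1:128359706-128359843 for Mcm6, on the plus strand for Gins3 and on the minus strand for the other 6. The Pold3 stretch held an ETS word and no nuclear receptor word, the Rfc4 stretch held AGGTCA as its complement, and the Gmnn stretch held AGGTCA in both orientations, once within the extended form AGAGGTCA. The Mcm6 stretch held 3 E2F words, of which a pair overlapped. Pola1 held AGGGGTCA shortly before an E2F word.

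The peaks of the replication genes lay on the start site or close to it. Each of the 22 genes had a single peak within 1 kb, and 14 of the 22 peaks (63.6%) overlapped a TSS of the gene, against 2302 of the 5654 peaks within 1 kb of a protein-coding TSS (40.7%, termed promoter peaks). The farthest of the 22 lay 196 bp from its TSS, at Rpa3. Among the genes without a peak the nearest one lay at 5257 bp, at Pcna. Widening the window from 500 bp to 2 kb therefore left the count at 22, while the share of protein-coding genes rose from 26.4% to 28.9%. Requiring the peak to overlap the TSS left 14 replication genes (29.8%) and 11.4% of protein-coding genes.

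Peak midpoints ran from 345.5 bp upstream of the TSS (offset -345.5) to 190.5 bp downstream, with a median offset of 7.0 bp. Of the 22 midpoints, 12 lay downstream of the TSS and 10 upstream, whereas 65.2% of promoter peaks had their midpoint downstream, at a median offset of 92.5 bp. By the annotation 6 midpoints fell outside any gene, 8 in a 5′ UTR, 2 in a coding exon and 6 in an intron. The 5′ UTRs included those of the neighbouring genes Pxmp2, Smyd4 and Umad1, at the Pole, Rpa1 and Rpa3 peaks.

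**Figure D2:**
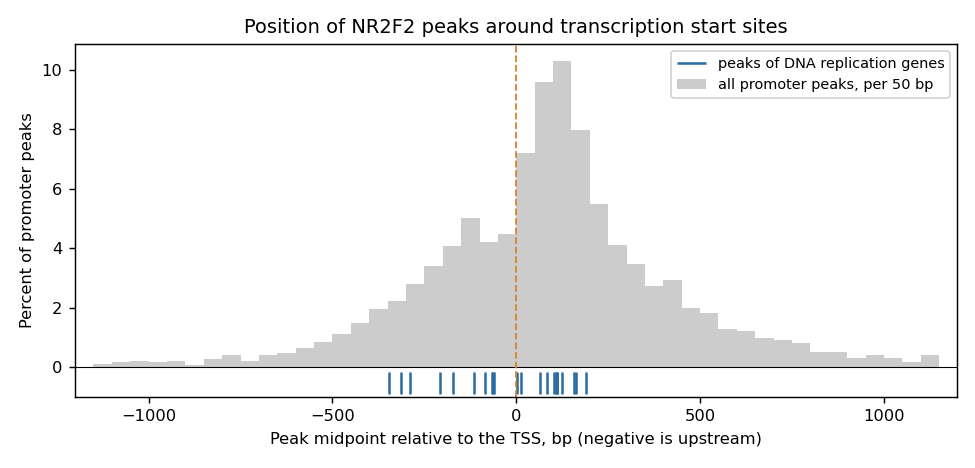
Position of the peak midpoint relative to the TSS, in bp in the direction of transcription, for the 22 replication gene peaks and, as shares per bin, for all promoter peaks. The member midpoints had a median offset of 7.0 bp against 92.5 bp for promoter peaks.

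**Figure D3:**
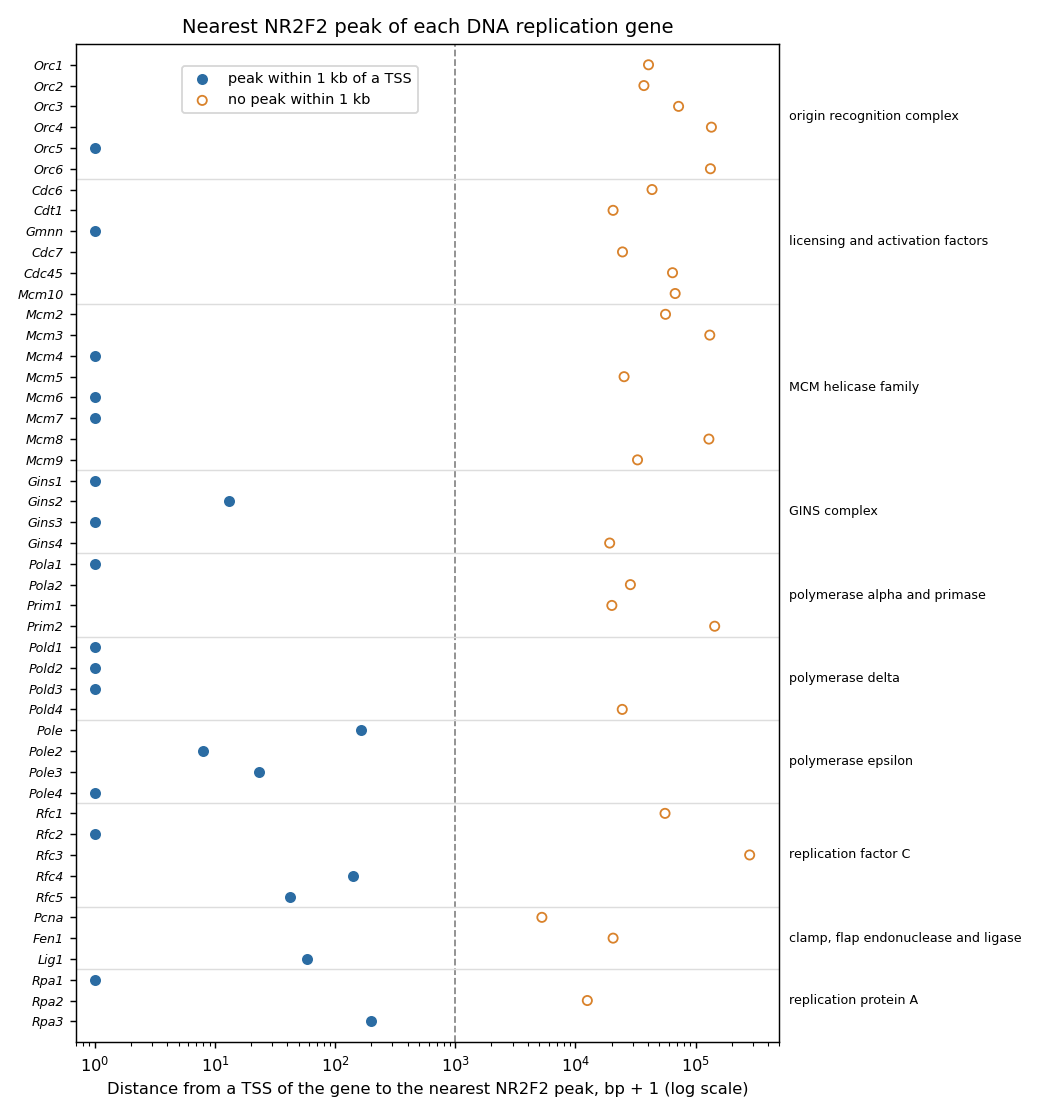
Distance in bp (plus 1, log scale) from a TSS of each of the 47 genes to its nearest NR2F2 peak, by complex, with filled points for the 22 genes with a peak within 1 kb and open points for the 25 without. The filled points end at 196 bp, at Rpa3, and the open ones begin at 5257 bp, at Pcna.

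In the following, counts are given in the order ChIP replicate 1, ChIP replicate 2 and input. The log2 ratio of a peak is its ChIP to input ratio relative to the typical peak, fitted over all 10069 peaks with edgeR and trimmed mean of M-values (TMM) factors, with its standard error. A value of 0 thus means the enrichment of a typical peak, not the absence of enrichment. Ratios given with a counting interval are plain ChIP counts over input counts, with the libraries not scaled to each other. Computed so, but with 0.5 added to each count, the median ratio over all peaks was 5.11 in ChIP replicate 1 and 4.39 in ChIP replicate 2. Counts of genes without a peak at their TSS are not given, because reads were counted at peaks only, and the lack of a listed peak does not show that NR2F2 was absent.

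Among the ORC genes, whose products mark origins, only Orc5 had a peak (chr5:22550254-22550553), with 31, 24 and 8 counts and a log2 ratio of -0.54 ± 0.59. Both ChIP counts lay below the median of all peaks. The peak also overlapped the start of 6030443J06Rik, which is transcribed from the other strand. For Orc1, Orc2, Orc3, Orc4 and Orc6 the nearest peak was 40594, 37166, 72235, 135563 and 133029 bp away. That of Orc2 lay within the 3′ UTR of the gene itself, where 12, 20 and 2 counts were found.

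Of the licensing and activation factors, only Gmnn had a peak. Gmnn encodes geminin, the inhibitor of Cdt1, and its peak (chr13:24761848-24762147) held 102, 79 and 6 counts. The log2 ratio was 1.59 ± 0.52, with an unadjusted p of 0.00207 and an adjusted p of 0.0891 (edgeR's quasi-likelihood test, Benjamini-Hochberg over all peaks), so it did not pass the threshold of 0.05. No peak lay within 1 kb of Cdt1, the helicase loader that geminin restrains, and its nearest was 20579 bp away in an intron of Piezo1. Cdc6, the partner of Cdt1 in loading, had its nearest peak at 43434 bp, in an intron of Rara. Cdc7, the kinase that triggers origin firing, Cdc45, a part of the active helicase, and Mcm10, which acts at its activation, had theirs at 24659, 64325 and 67663 bp.

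The MCM2 to MCM7 proteins form the ring of the replicative helicase, and 3 of these 6 genes had a peak. At Mcm7 (chr5:138171034-138171333) 75, 56 and 6 counts were found, with a log2 ratio of 1.12 ± 0.56 and an adjusted p of 0.459 by edgeR. At Mcm6 (chr1:128359544-128359843) the ChIP counts were 52 and 20 over 7 in the input, which gave the lowest p of the 22 peaks in the comparison of the replicates given further on, and the log2 ratio was 0.03 ± 0.59. It was -0.68 without ChIP replicate 1 and 0.46 without ChIP replicate 2, so its sign rested on which library was used. Mcm4 (chr16:15637148-15637447) held 27, 24 and 10 counts. Its log2 ratio of -0.96 ± 0.56 was the lowest of the 22. The start of Prkdc, which encodes a DNA repair kinase and is transcribed away from Mcm4, lay 419 bp from that peak, and the start of Ap4m1 lay 688 bp from the Mcm7 peak. Mcm2, Mcm3 and Mcm5 had no peak nearer than 56233, 131375 and 25415 bp. Neither did Mcm8 and Mcm9, which form a separate helicase used in recombination, with distances of 129158 and 32888 bp, the latter to a peak in an intron of Mcm9 that overlapped the start of Asf1a, a histone chaperone gene.

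GINS joins MCM and Cdc45 in the active helicase. Gins3 (chr8:95633347-95633646) held 42, 36 and 7 counts, Gins2 (chr8:120588764-120589063) 64, 40 and 12, and Gins1 (chr2:150909568-150909867) 27, 22 and 8. Their log2 ratios were 0.16 ± 0.58, -0.21 ± 0.48 and -0.70 ± 0.61, and the smallest adjusted p of the 3 was 0.803 by edgeR. Gins4 had no peak within 19280 bp.

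Primer synthesis requires the catalytic subunit Pola1, the accessory subunit Pola2 and the primase subunits Prim1 and Prim2, and among these Pola1 alone had a peak. It lay on the X chromosome (chrX:93632121-93632420) with 37, 33 and 2 counts, which gave ratios of 18.5 (exact 95% counting interval 4.77 to 158) and 16.5 (4.22 to 142) in the replicates. The log2 ratio was 1.79 ± 0.85, with an adjusted p of 0.419 by edgeR, and the low input count limited its precision. The nearest peaks to Pola2, Prim1 and Prim2 were 28683, 20101 and 144317 bp away, that of Prim1 in the 5′ UTR of Naca.

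Polymerase delta, which copies the lagging strand, held the strongest of the 22 peaks. At Pold3, an accessory subunit, the peak (chr7:100121348-100121647) was centred 2.5 bp downstream of the TSS and held 192, 169 and 3 counts. Both ChIP counts were the highest among the replication genes, while the input count was among the 4 lowest. The ratios were 64.0 (exact 95% counting interval 21.6 to 313) and 56.3 (19.0 to 276). The log2 ratio of 3.58 ± 0.50 passed the test, with an adjusted p of 3.94e-09 by edgeR. With DESeq2 the standard error was 0.96 and the adjusted p 0.0224, and with DESeq2 size factors in edgeR the adjusted p was 0.00656. All of these rest on a single input library, which had no spread of its own and was assumed to vary like the ChIP libraries. Pold1, the catalytic subunit (chr7:44548557-44548856), held 130, 82 and 13 counts and a log2 ratio of 0.70 ± 0.40, and Pold2, a structural subunit (chr11:5877997-5878296), held 65, 47 and 13 with -0.21 ± 0.46. Pold4, the smallest subunit, had its nearest peak at 24539 bp.

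Polymerase epsilon, which copies the leading strand, had a peak at all of its genes, and none of these peaks passed the edgeR test against the typical peak. The catalytic subunit Pole (chr5:110285857-110286156) held 36, 26 and 2 counts, with ratios of 18.0 (4.63 to 154) and 13.0 (3.25 to 113) and a log2 ratio of 1.62 ± 0.87. That peak was nearer to the start of Pxmp2, a peroxisomal membrane protein gene on the other strand (12 bp), than to that of Pole (163 bp). Pole2, a structural subunit (chr12:69227884-69228183), had the lowest summed ChIP count of the 22, at 29 and 16 over 3 in the input, with ratios of 9.67 (2.996 to 49.6) and 5.33 (1.53 to 28.6) and a log2 ratio of 0.58 ± 0.85. Pole3 and Pole4 encode small histone-fold subunits. Pole3 (chr4:62525036-62525335) held 53, 40 and 6 counts at a log2 ratio of 0.63 ± 0.60, and Pole4 (chr6:82652650-82652949) held 65, 47 and 14 at -0.32 ± 0.45.

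RFC opens PCNA and loads it onto primed DNA. Rfc4 (chr16:23127869-23128168) held 107, 87 and 12 counts with a log2 ratio of 0.69 ± 0.41, Rfc5 (chr5:117388683-117388982) held 55, 47 and 5 with 1.03 ± 0.62, and Rfc2 (chr5:134582652-134582951) held 35, 25 and 6 with 0.00 ± 0.63. Rfc1, the large subunit, and Rfc3 had no peak within 55713 and 282198 bp, the latter the largest distance among the 47 genes.

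Neither Pcna, the clamp, nor Fen1, the flap endonuclease, had a peak within 1 kb. The nearest to Pcna lay in the 5′ UTR of the neighbouring gene Tmem230 and held 37, 28 and 8 counts, and the nearest to Fen1 lay 20589 bp away in a coding exon of Fads1. Lig1, the ligase that seals Okazaki fragments, had a peak (chr7:13278470-13278769) with 49, 41 and 9 counts and a log2 ratio of 0.00 ± 0.53, which overlapped the start of Zswim9 and lay 57 bp from that of Lig1. Among the RPA genes, whose products coat single-stranded DNA, Rpa1 (chr11:75348318-75348617) held 52, 47 and 7 counts at 0.50 ± 0.57, with the start of Smyd4 in the same peak. Rpa3 (chr6:8259337-8259636) held 42, 38 and 9 at -0.16 ± 0.54, in a peak 49 bp from the start of Umad1 and 196 bp from its own. Rpa2 had its nearest peak at 12564 bp.

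**Figure D4:**
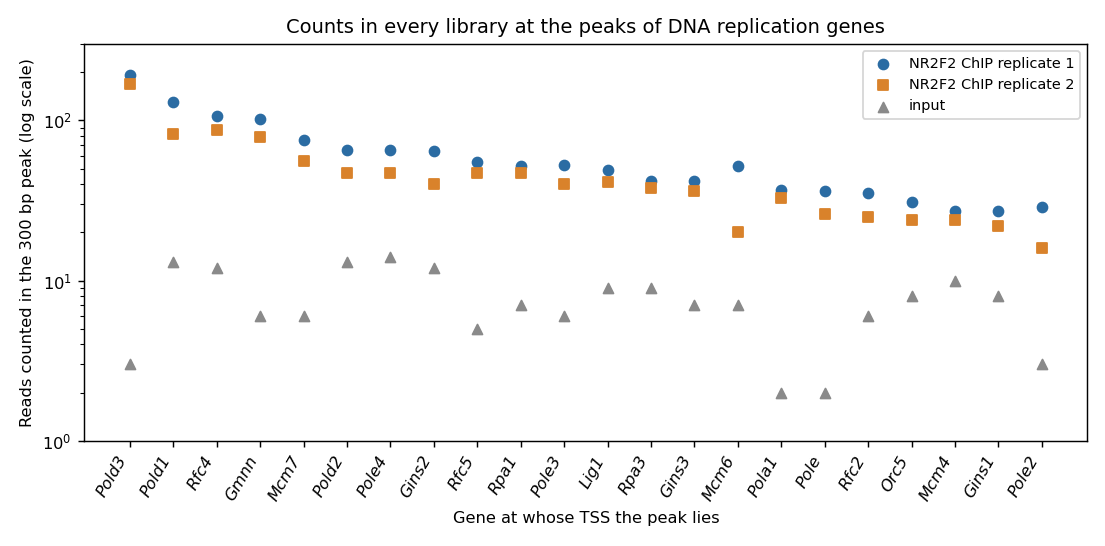
Read counts in both ChIP libraries and the input at the 22 replication gene peaks, each point being 1 library. Pold3 stood highest with 192 and 169 ChIP counts over 3 in the input, and at all 22 peaks both ChIP counts lay above the input count.

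Set against the typical peak, 1 of the 22 peaks (4.55%), that of Pold3, was higher at an adjusted p under 0.05 by edgeR's quasi-likelihood test, and 4 peaks (Pold3, Gmnn, Pola1 and Mcm7), all higher, had an unadjusted p under 0.05 (18.2%). Of all peaks 1.53% (154) passed in this direction after adjustment, and of promoter peaks 1.89% (107). Unadjusted, 7.89% of all peaks and 9.29% of promoter peaks were higher. None of the 22 was lower by edgeR at an adjusted p under 0.05, against 0.0497% of all peaks (5), and none at an unadjusted p under 0.05, against 2.55% of all peaks and 1.57% of promoter peaks. The log2 ratios of the 22 ran from -0.96 to 3.58 around a median of 0.33, with 7 below 0, 2 at 0.00 and 13 above, while the median was 0.11 over promoter peaks and 0.02 over all peaks. Every peak had been selected for ChIP reads by the calling on the same libraries, so no test of ChIP above input was made.

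The summed ChIP counts of the 22 peaks ran from 45 to 361 with a median of 91.5, against 73.0 for promoter peaks, and 9 of the 22 lay above the upper quartile of promoter peaks (100) and 3 below the lower (54.0). The median input count was 7.0 in both sets. In each replicate the median log2 of the ChIP to input ratio (0.5 added to each count, libraries not scaled) was 2.81 and 2.26 at member peaks, a mean of 2.53 ± 0.39 (SD, n = 2), against 2.33 ± 0.19 at promoter peaks. The member median exceeded that of promoter peaks by 0.34 in replicate 1 and by 0.06 in replicate 2, a mean difference of 0.20 ± 0.20 (SD, n = 2), which was no larger than the spread between the replicates.

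**Figure D5:**
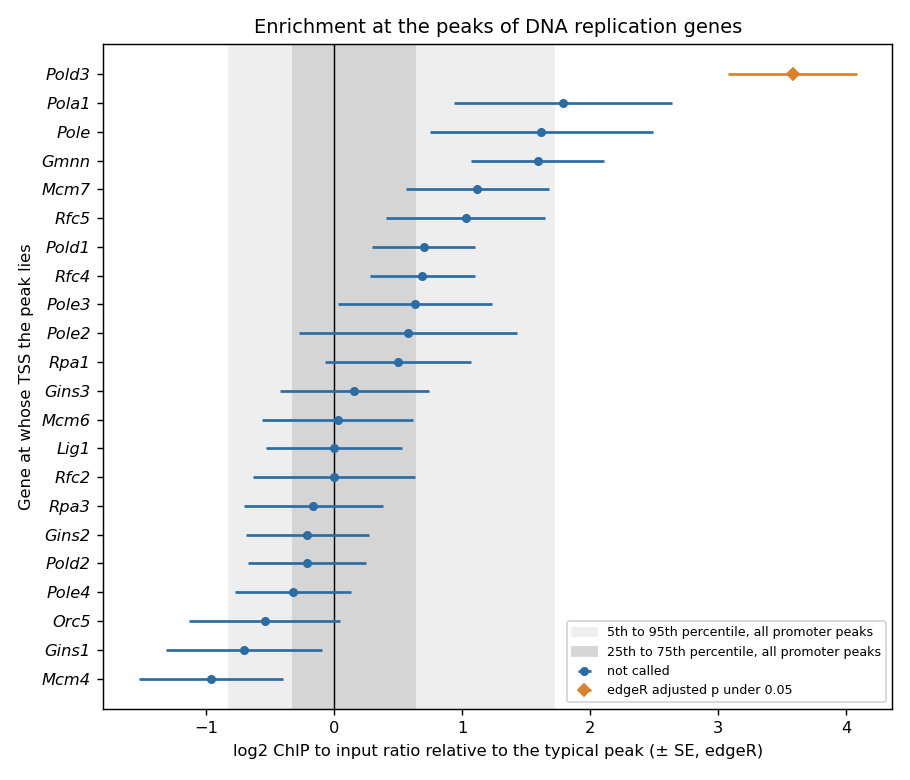
Log2 ChIP to input ratio of each of the 22 peaks relative to the typical peak, with the standard error from edgeR, beside percentiles of all promoter peaks. Pold3 stood at 3.58 ± 0.50, and the median of the 22 was 0.33 against 0.11 for promoter peaks.

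The ChIP replicates differed at none of the 22 peaks after adjustment in a binomial test of each peak (exact, two-sided), and at 2 of them (Mcm6, p = 0.00194, and Pold1, p = 0.0327) at an unadjusted p under 0.05, which is 9.09%. Over all peaks 0.0993% (10) passed after adjustment and 8.83% unadjusted. The count of replicate 1 was nonetheless above that of replicate 2 at all 22 peaks, against 74.2% of promoter peaks, and replicate 1 held 56.7% of the ChIP counts at the 22 peaks and 54.0% of those at all peaks. This test compares a pair of libraries and covers counting error only.

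The start regions of the replication genes were rich in CpG. RefSeq start regions (250 bases before to 50 after the start, GRCm38) were matched for 39 of the 47 genes and for 16853 protein-coding genes, with Gmnn, Mcm4, Gins1, Gins2, Gins4, Prim2, Pole and Rfc2 unmatched. Of these 8 unmatched genes 6 had a peak, so the matched 39 had a lower share (16 genes, 41.0%) than the 47. Of the 39, 30 (76.9%) were CpG-rich, defined as a GC content over 50% and an observed to expected CpG ratio over 0.6, against 46.9% of protein-coding genes. Among these 30 genes, 14 (46.7%) had a peak, and among all CpG-rich protein-coding genes 47.8% did. Of the 9 replication genes that were not CpG-rich, 2 had a peak, against 11.7% of such protein-coding genes. The shares within CpG-rich genes thus differed by 1.15 percentage points, without the 8 unmatched genes. Each gene was classed by a single start region, which need not be the one at its peak where a gene has several TSSs. Lig1, which has 3 TSSs, was among the genes with a peak that were not classed as CpG-rich. The GC content was 64.2% in the median for the 16 genes with a peak and 57.7% for the 23 without, with ranges of 51.3 to 69.3% and 38.7 to 70.0%, which overlap.

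Many replication genes also shared their start region with another gene. Another gene started within 1 kb on the other strand at 17 of the 47 (36.2%), against 13.9% of protein-coding genes. Of these 17, 9 (52.9%) had a peak, beside 51.7% of all protein-coding genes with such a neighbour. Of the 30 without, 13 (43.3%) had a peak, beside 24.3% of protein-coding genes without such a neighbour. At 9 of the 22 peaks the start of another gene lay within 1 kb, and at Pole, Lig1 and Rpa3 it was the nearer, while the Orc5 and Rpa1 peaks overlapped both starts, so for these 5 a peak cannot be assigned to the replication gene rather than its neighbour. Gm15728, 140 bp from the Rfc5 peak, and 4933430I17Rik, 34 bp from the Pole3 peak, were further such neighbours. The start of Pole3 lay 22 bp from its peak, so the assignment of that peak to Pole3 rests on a small difference in distance.

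Words of the nuclear receptor core site were present in a minority of the 22 peaks. AGGTCA was found in 3 of the 22 peaks (13.6%), at Gmnn, Gins3 and Rfc4, against 25.4% of promoter peaks and 37.7% of all peaks. An extended form, of which AGAGGTCA contains AGGTCA, was found in 3 (13.6%), at Gmnn, Pola1 and Pold1, against 6.07% of promoter peaks. Together 5 peaks (22.7%) held either word, against 27.5% of promoter peaks, and the Pold3 peak held neither.

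E2F words were found in 8 of the 22 peaks (36.4%), those of Mcm6, Gins1, Gins3, Pola1, Pold1, Pold3, Pole2 and Pole4, against 4.21% of promoter peaks. CCGGAAG was likewise found in 8 (36.4% against 16.1%), CCAAT in 10 (45.5% against 24.4%) and GGGCGG in 17 (77.3% against 57.9%). E2F words were also present at genes without a peak. In the start regions they occurred in 8 of the 16 matched genes with a peak and in 8 of the 23 without, together 41.0% of the 39, against 2.97% of all protein-coding start regions and 5.05% of CpG-rich ones. CCAAT was found in 7 of the 16 (43.8%) and in 16 of the 23 (69.6%), against 39.3% of protein-coding start regions and 37.3% of CpG-rich ones. GGGCGG was found in 74.4% of the 39, against 47.7% of protein-coding start regions and 77.1% of CpG-rich ones, and CCGGAAG in 41.0%, against 12.2% and 20.2%. These are matches of letters in fixed windows and do not show that a factor was bound.

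Further genes of replication and of its control, taken from 4 lists of genes outside the 47, had a peak in 34 of 71 cases (47.9%), beside 28.1% of protein-coding genes. Among protein-coding genes with a CpG-rich start region the share was 47.8%. The deoxynucleotide supply genes had a peak at 7 of 12 (58.3%), among them Rrm1, the large subunit of ribonucleotide reductase, and Tyms, thymidylate synthase. Of the genes for Okazaki fragments, chromatin assembly and clamp loading, 8 of 15 (53.3%) had one, including the topoisomerase genes Top1, Top2a and Top2b and the histone chaperone genes Asf1a and Asf1b. The G1 to S control list stood at 12 of 26 (46.2%), with the transcription factor genes E2f1, E2f3, E2f5, E2f6 and E2f8 and the kinase genes Cdk4 and Cdk6 among them. Of the helicase loading, firing and checkpoint partners, 7 of 18 (38.9%) had one, including Dbf4, the activator of Cdc7. None of the 35 peaks at these genes was above or below the typical peak by edgeR after adjustment, and 5 (14.3%) had an unadjusted p under 0.05, against 10.4% of all peaks. Of these 5, the peaks at E2f3, E2f5 and Tfdp2 were higher and those at Rnaseh2c and Asf1b lower. The E2f5 peak held only 13 and 15 ChIP counts over 0 in the input, so no fold is given for it.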

How the data were processed

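NR2F2 ChIP-seq of E14.5 mouse testis comprised 2 ChIP libraries and 1 input, grouped by their labels. The files deposited by the authors hold, for each library, unnormalised read counts at every peak. Per the study's methods and the submitters' notes, reads were trimmed (Trim Galore 0.6.7), mapped to mm10 (Bowtie2) and cleared of duplicates (Picard 1.110), and HOMER 4.11.1 called peaks on merged ChIP reads, which selects peaks for high ChIP counts. The rule that assigned reads to peaks is not given in the sources. Totals at peaks are not sequencing depths, so only comparisons among peaks are independent of depth, and the median of 7 input counts limits every ratio.

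Peaks were joined to curated RefSeq TSSs by edge distance. edgeR 4.0.16 (R 4.3.3, limma 3.58.1) was fitted to all peaks with TMM factors and Benjamini-Hochberg adjustment at 0.05, and was tested on simulated data. The single input is assumed to vary like the ChIP libraries. DESeq2 1.42.0, other scalings, filters, windows and left-out replicates were alternatives. Counting intervals were exact at the 95% level and cover counting error only. All 47 genes were named. The genes, lists and words searched were chosen with earlier results of these data known, and peaks and genes are not replicates.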

Additional observations from a re-analysis of the deposited data

How the results depend on the processing

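The count of 22 genes with a peak was unchanged at 500 bp, at 2 kb, by peak midpoints and with protein-coding transcripts only. It was 23 within 10 kb, 20 with at least 50 summed ChIP counts, 19 where the nearest TSS had to be the gene's own, and 14 where the peak had to overlap the TSS. GENCODE M21 gene models, an alternative chosen after seeing the data, gave 23, adding Mcm9. The single peak above the typical one, at Pold3, kept its call under every alternative that tested it. With at least 10 input counts the number was 0, since only 6 of the 22 peaks, not that of Pold3, were tested, and 2 of these had an unadjusted p under 0.05. No other of the 22 gained a call in any setting, although DESeq2 gave an adjusted p for only 4 of them. The number of the 22 higher at an unadjusted p under 0.05, 4 by edgeR with TMM, was 3 with DESeq2 size factors, with promoter peaks alone or without the X and Y chromosomes, 2 with no normalization and 1 with DESeq2. Over all peaks the number above the typical one fell from 154 to 102 with no normalization, 39 with DESeq2 size factors, 22 with DESeq2, 58 with at least 10 input counts and 83 with promoter peaks alone. Leaving out normalization moved the 22 log2 ratios by -0.11 in the median. With at least 10 input counts the log2 ratios of the 6 tested peaks, relative to the typical peak of that smaller set, moved by 0.32 in the median. Those of Gins2 and Pold2 then turned from -0.21 to 0.11. The median log2 ChIP to input ratio of 2.53 became 1.96 with 5 added to each count (1.79 at promoter peaks) and 2.04 with at least 10 input counts (1.98 at promoter peaks), and leaving out 1 ChIP replicate gave 2.26 to 2.81. Without a ChIP replicate no test was possible, since 1 library then stood against 1. No paired analysis was possible because the single input carries no replicate number. Depth limits what can be said of Pold3, Pola1, Pole and Pole2, whose ratios rest on 2 or 3 input counts. The Pold3 ratio has a wide counting interval, which does not cover the unknown scaling between the ChIP and input libraries. Its size as an enrichment is therefore not known. Single libraries could not be checked for outliers in groups this small.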

Other observations

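Several replication genes without a peak at their start had a peak with high ChIP counts at some distance. The nearest peak to Prim1, in the 5′ UTR of Naca, held 120 and 101 ChIP counts over 9 in the input, that nearest to Pola2 held 106 and 74 over 13, and that nearest to Cdt1, in an intron of Piezo1, held 102 and 85 over 11. The peak 129158 bp from Mcm8 held 71 and 76 over 3. These genes were singled out from the 25 without a peak after their values were seen. The nearest peaks of others of the 25 were low, such as that of Orc4 with 13 and 13 over 4, while the medians over all peaks were 37, 31 and 7. Distance alone does not tie a peak to a gene, and no such link was tested.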
